A study of Mus musculus with 6 samples.

Results

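Genes strongly reduced in both metastatic variants of the B16-F1 mouse melanoma line were described here across 6 RNA sequencing libraries. A gene was taken where the lower of the 2 B16-F1 libraries reached 2 FPKM (fragments for each kilobase of transcript and each 1000000 reads mapped, a level per transcript length) and the highest of the 4 variant libraries was at most 1/4 of that value. Small RNA symbols and collagen chain genes were left out. The rule found 40 genes among 23951 in the table, or 0.414% of the 9657 genes at or above 2 FPKM in both B16-F1 libraries. Since the rule used the FPKM of B16-F1 against the variants, the values in that contrast are given as a description without a test, and only the difference between the variants was tested for these genes.

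B16-F1 is a cultured line of mouse melanoma cells with low metastatic potential and was bought from a cell repository. B16-F1R2, called the lymph node variant here, was derived from a lymph node metastasis. B16-F1R2L, called the lung variant, was derived from a metastasis in the lung that itself came from a lymph node metastasis. Both variants came from another laboratory, so the metastatic origin and the source of the cells cannot be told apart. Each line had 2 libraries of polyadenylated RNA, and the 3 lines grew in the same high glucose medium without treatment. Whether the 2 libraries of each line were grown as separate cultures is stated by no label or method, so every p-value measures only the spread between these libraries, which may be technical.

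Melanoma cells descend from melanocytes, which make melanin in melanosomes from tyrosine. The tyrosinase family of enzymes carries out the synthesis, and membrane transporters set the ionic conditions inside the organelle. Melanoma cells differ widely in how much of this pigment program they express, and in their surface receptors, adhesion molecules and basement membrane proteins.

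The FPKM summed to between 596657 and 672794 per library, and 10617 to 11168 genes reached 1 FPKM. Depth, estimated from the smallest values of genes with 1 transcript, was 12900000 to 14800000 reads. Melanocyte markers were present in all 3 lines: all 7 were expressed, and their summed FPKM was 14970 to 15007 in B16-F1, 7909 to 8125 in the lymph node variant and 8924 to 8933 in the lung variant. Markers of fibroblasts, macrophages, lung epithelium and keratinocytes stayed low. The summed FPKM of the fibroblast list was 0.764 to 1.30, that of the macrophage list 0.504 to 2.19 and that of the lung epithelium list 0.383 to 0.905, and keratinocyte markers reached at most 0.0600. Blood endothelium markers summed to 0.0875 to 0.144 FPKM in B16-F1 against 1.87 to 3.41 in the variants, with Cdh5, Kdr and Tek listed at 0. Pecam1 was listed at 0 in B16-F1 and had 0.752 to 1.26 FPKM in the variants. Vwf had 0.0875 and 0.144 FPKM in B16-F1 against 1.11 to 2.15. In B16-F1R2 their log2 differences were 3.10 (adjusted p = 0.00017) and 2.62 (adjusted p = 0.00023), by limma. Lymphocyte markers summed to 0.0204 to 0.0806 against 12.5 to 17.1, nearly all from Cd79a, with Ptprc, Cd3e and Ms4a1 listed at 0. The lymphatic endothelium list summed to 5.98 to 12.9 FPKM, mostly Pdpn, with Lyve1 and Ccl21a listed at 0. The part of these transcripts in the differences between lines was not tested.

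Together the 40 genes reached a summed FPKM of 1073 and 1081 in B16-F1, 120 and 113 in the lymph node variant, and 112 and 120 in the lung variant. Hgsnat, Tyr and Cited1 held 59.1% of the B16-F1 sum. The median of the lower B16-F1 value was 6.73 FPKM and the median of the highest variant value 0.662 FPKM. In 26 genes every variant library stayed under 1 FPKM, in 10 under 0.1 FPKM, and in 3 (Hgsnat, Tyr and Cited1) at least 1 variant library still held 10 FPKM or more. The median log2 difference of the 40 genes was -4.48 in the lymph node variant and -4.13 in the lung variant against B16-F1, beside medians of 0.0046 and 0.017 over the 11379 tested genes. All 40 genes were among the tested genes. Of all tested genes, 27.2% were lower in B16-F1R2 and 27.1% lower in B16-F1R2L by limma, a contrast that the choice of these genes had already used. Both comparisons share the B16-F1 libraries.

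**Figure D1:**
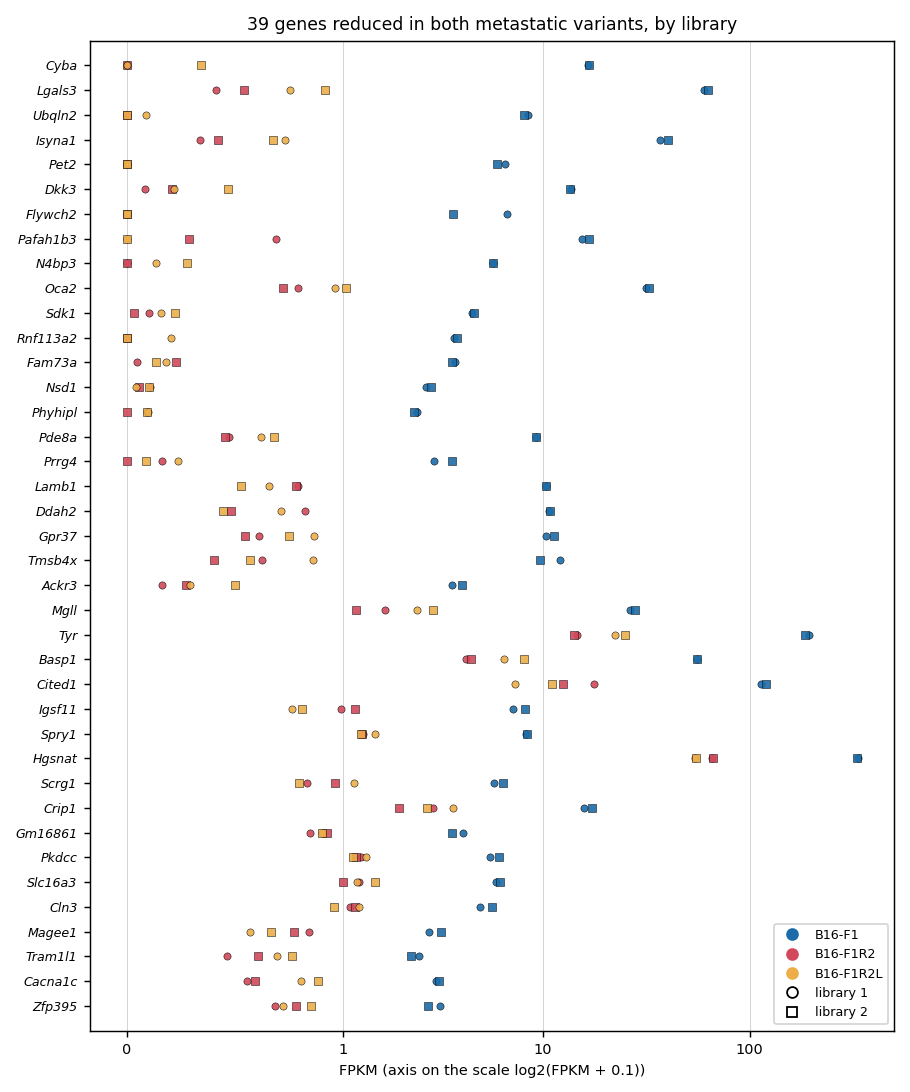
FPKM of 39 of the 40 genes in each of the 6 libraries, on the scale log2(FPKM + 0.1), with the lines in 3 colours and the 2 libraries of a line as a circle and a square; genes are ordered by the ratio of the lower B16-F1 value to the highest variant value plus 0.1 FPKM. Pet2 and Flywch2 lie at 0 in all 4 variant libraries, and Hgsnat keeps 54.8 to 66.3 FPKM there.

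**Figure D2:**
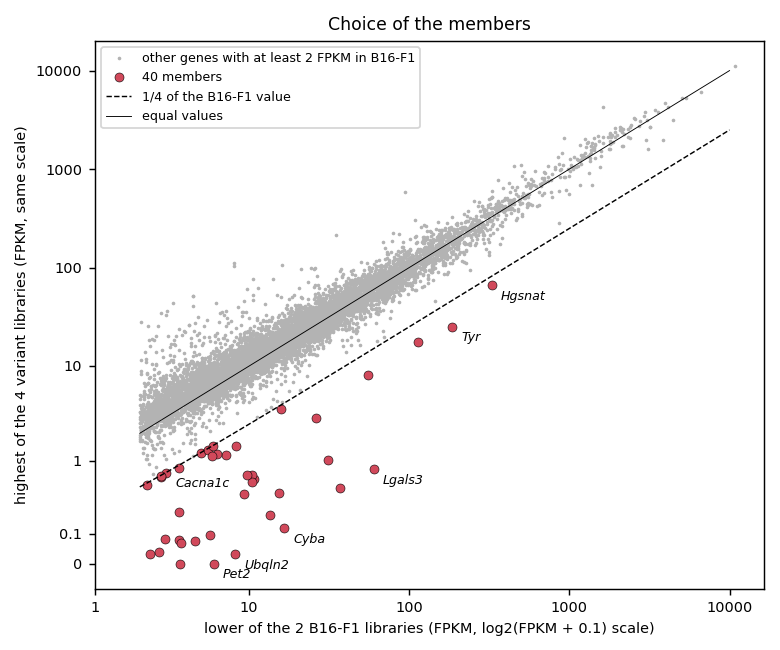
The lower B16-F1 value (x axis) against the highest variant value (y axis) of genes with at least 2 FPKM in both B16-F1 libraries, both on the scale log2(FPKM + 0.1); red points are the 40 genes and grey points the others. The dashed line marks 1/4 of the B16-F1 value, and Cacna1c, at 24.8%, lies closest to it.

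The 2 pigment genes in the set were Tyr and Oca2. Tyr encodes tyrosinase, which carries out the first step of melanin synthesis, and lies at chr7:94574910-94641943 on the minus strand (NCBIM37, the assembly that mm9 names). Its level was 192 and 186 FPKM in B16-F1, 14.7 and 14.2 in the lymph node variant, and 22.4 and 25.1 in the lung variant. Both variants lay far below B16-F1, and the B16-F1R2L libraries lay above those of B16-F1R2 without overlap. Oca2 encodes a melanosomal membrane protein that influences the pH of the organelle, and lies at chr7:63495130-63791887 on the plus strand. It had 31.4 and 32.8 FPKM in B16-F1, 0.567 and 0.469 in the lymph node variant, and 0.905 and 1.04 in the lung variant. The order of the 3 lines was the same as for Tyr.

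The other 11 tested genes of melanin synthesis and the melanosome, which the rule did not take, were 0 higher and 9 lower in B16-F1R2 and 3 higher and 8 lower in B16-F1R2L, by limma at an adjusted p of 0.05. Over all tested genes, 28.2% were higher and 27.2% lower in the lymph node variant, and 29.5% and 27.1% in the lung variant. In B16-F1R2, Trpm1, a cation channel, fell by 1.48 on the log2 scale (SE 0.059, adjusted p = 7.6e-06), Slc24a5, a melanosomal cation exchanger, fell by 1.39 (SE 0.068, adjusted p = 1.8e-05), and Dct, dopachrome tautomerase, fell by 1.38 (SE 0.054, adjusted p = 7.4e-06). Tyrp1, a relative of Tyr in the tyrosinase family, had 3015 and 3034 FPKM in B16-F1, 1827 and 1817 in the lymph node variant, and 1932 and 1967 in the lung variant. Its difference of -0.73 (SE 0.054, adjusted p = 8.9e-05 by limma) was smaller than the -3.70 of Tyr on the same scale. Slc45a2, a melanosomal transporter like Oca2, fell by 1.17 in the lymph node variant (SE 0.048, adjusted p = 8.4e-06 by limma), against -5.71 for Oca2. In the opposite direction, Slc24a4 was higher in B16-F1R2L by 1.62 (SE 0.20, adjusted p = 0.00080 by limma). Of 8 tested regulators of the melanocyte lineage, none of which belongs to the set, 0 were higher and 6 lower in B16-F1R2, and 2 were higher and 5 lower in B16-F1R2L. Mitf, the master transcription factor of the lineage, had 92.3 and 88.7 FPKM in B16-F1, 79.5 and 83.6 in the lymph node variant (log2 difference -0.15, SE 0.068, adjusted p = 0.11 by limma), and 112 and 127 in the lung variant (0.40, SE 0.068, adjusted p = 0.0032). The receptor Kit fell by 2.13 in B16-F1R2 (adjusted p = 0.00047) and by 1.78 in B16-F1R2L (adjusted p = 0.0010), and the transcription factor Sox9 fell by 1.56 (adjusted p = 0.00044) and 1.51 (adjusted p = 0.00051), by limma.

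**Figure D3:**
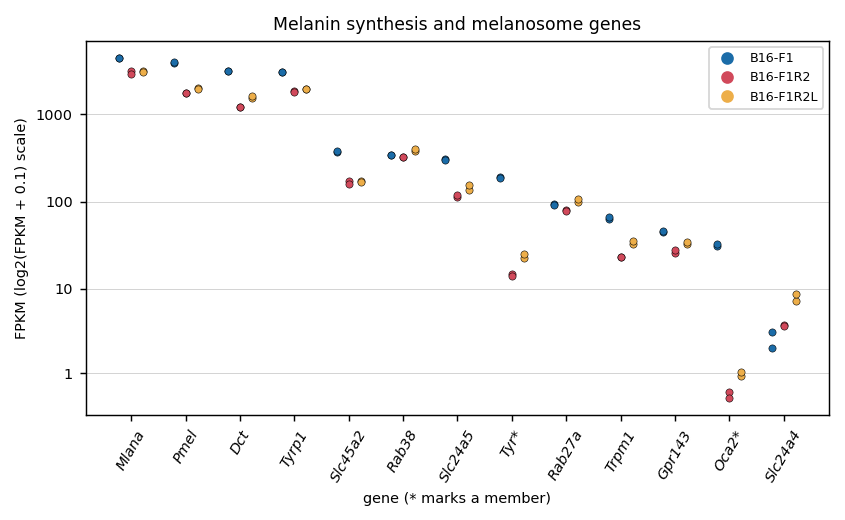
FPKM of the melanin synthesis and melanosome genes in each library, on the scale log2(FPKM + 0.1), 1 point per library and 1 colour per line; an asterisk marks Tyr and Oca2. Tyr lies at 14.2 to 25.1 FPKM in the variants against 186 and 192 in B16-F1, while Tyrp1 lies at 1817 to 1967 against 3015 and 3034.

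The promoter windows of RefSeq hold 1 or more entries for 29 of the 40 genes, and a gene with several windows is represented by the one with the highest CpG ratio for CpG content, while a motif in any of its windows counts for the gene. The motif TCATGTG, a core that MITF is known to bind in pigment gene promoters, was searched on both strands because Mitf regulates Tyr. It stood in the windows of 3 of the 29 genes (10.3%), beside 2.58% of the 8614 tested genes with a window. Tyr, the reason for the search, is among these 3, so the share partly restates the choice of the motif. The difference in shares was not tested. These 3 sequences are printed as the 250 bases before the RefSeq start, on the strand of the gene, with the motif in capitals. They are Tyr at chr7:94642023-94642272, where the motif begins 22 bases before the start, Prrg4 at chr2:104690008-104690257, where it begins 153 bases before, and Spry1 at chr3:37538619-37538868, where it begins 76 bases before and reads on the other strand. The RefSeq start of Tyr lies upstream of the gene span given above, which comes from another annotation.
Tyr: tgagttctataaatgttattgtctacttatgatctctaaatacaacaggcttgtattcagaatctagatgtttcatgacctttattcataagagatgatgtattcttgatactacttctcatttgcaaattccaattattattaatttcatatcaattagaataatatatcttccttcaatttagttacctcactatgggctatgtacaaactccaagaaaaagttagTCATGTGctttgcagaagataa
Prrg4: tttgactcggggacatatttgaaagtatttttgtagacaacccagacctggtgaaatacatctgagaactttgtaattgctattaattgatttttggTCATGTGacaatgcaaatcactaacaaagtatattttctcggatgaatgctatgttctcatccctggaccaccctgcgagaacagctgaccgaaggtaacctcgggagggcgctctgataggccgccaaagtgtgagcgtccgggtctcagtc
Spry1: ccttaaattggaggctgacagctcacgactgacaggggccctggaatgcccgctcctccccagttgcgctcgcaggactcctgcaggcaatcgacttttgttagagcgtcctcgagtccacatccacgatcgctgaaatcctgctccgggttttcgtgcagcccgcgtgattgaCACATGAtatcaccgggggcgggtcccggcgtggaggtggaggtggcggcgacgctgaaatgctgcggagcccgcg

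The 3 other motifs searched, also on both strands, gave the following shares. The E-box CACGTG stood in the windows of 3 of 29 genes (Cln3, Mgll and N4bp3, 10.3%) against 12.2% of all tested genes with a window, the AP-1 motif TGANTCA in 0 of 29 against 5.85%, and the CRE motif TGACGTCA in 0 of 29 against 3.71%. CpG content spread widely. The median ratio of observed to expected CpG was 0.748 in the 29 genes against 0.806, and 21 of 29 (72.4%) exceeded 0.6, against 79.5%. Oca2 (chr7:63494879-63495128), Cyba (chr8:124956841-124957090) and Sdk1 (chr5:141717238-141717487) are printed to show this spread, with each CG in capitals: the windows hold 2, 6 and 44 CG in 250 bases, and ratios of 0.113, 0.275 and 1.21. All 3 genes were at or below 1.04 FPKM in every variant library.
Oca2: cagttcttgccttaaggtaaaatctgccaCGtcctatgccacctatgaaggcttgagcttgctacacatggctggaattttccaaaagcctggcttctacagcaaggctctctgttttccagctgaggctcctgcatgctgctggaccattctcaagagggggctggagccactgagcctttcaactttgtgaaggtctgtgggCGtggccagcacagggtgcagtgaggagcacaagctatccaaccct
Cyba: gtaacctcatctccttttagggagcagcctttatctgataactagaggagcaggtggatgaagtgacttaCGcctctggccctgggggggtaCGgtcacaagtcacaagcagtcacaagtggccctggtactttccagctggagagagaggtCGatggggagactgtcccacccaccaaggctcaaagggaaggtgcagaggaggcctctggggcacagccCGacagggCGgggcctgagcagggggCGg
Sdk1: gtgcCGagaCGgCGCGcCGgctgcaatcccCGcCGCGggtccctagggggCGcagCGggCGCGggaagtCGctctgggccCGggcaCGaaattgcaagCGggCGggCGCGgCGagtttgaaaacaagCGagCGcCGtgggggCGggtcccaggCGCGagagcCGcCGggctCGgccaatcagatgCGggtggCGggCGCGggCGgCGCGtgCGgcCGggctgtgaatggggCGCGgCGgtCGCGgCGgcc

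Among enzymes and transporters of metabolism, Hgsnat was the most abundant of the 40 genes. It encodes the lysosomal acetyltransferase of heparan sulfate degradation, and its level was 332 and 330 FPKM in B16-F1, 66.1 and 66.3 in the lymph node variant, and 54.8 and 55.3 in the lung variant. All 4 variant libraries lay at 20.1% of the lower B16-F1 value or less, and the 2 libraries of each line differed little. Naglu, a lysosomal enzyme of the same degradation pathway that the rule did not take, had 126 and 128 FPKM in B16-F1, 62.0 and 57.8 in the lymph node variant and 103 and 104 in the lung variant. It was thus lower in B16-F1R2 (log2 -1.09, SE 0.047, adjusted p = 1.0e-05 by limma) and higher in B16-F1R2L than in B16-F1R2 (0.79, SE 0.047, adjusted p = 0.00089). Hgsnat differed the other way between the variants (-0.27, adjusted p = 0.0082 by limma). That call was lost after rescaling to a sum of 1000000 (-0.16, adjusted p = 0.059).

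Isyna1, the enzyme that makes inositol phosphate from glucose phosphate, had 36.9 and 40.5 FPKM in B16-F1, 0.125 and 0.176 in the lymph node variant, and 0.480 and 0.405 in the lung variant. Impa1, the phosphatase that acts next in inositol synthesis, had 35.0 and 36.0 FPKM in B16-F1 and 33.0 to 34.7 in the lymph node variant (log2 -0.07, SE 0.053, adjusted p = 0.31 by limma). Mgll, which hydrolyses monoacylglycerols, had 26.4 and 28.1 FPKM in B16-F1, 1.65 and 1.17 in the lymph node variant, and 2.41 and 2.90 in the lung variant. Pafah1b3, a catalytic subunit of an acetylhydrolase of platelet-activating factor, had 15.5 and 16.8 FPKM in B16-F1 against 0.423 and 0.0999 in the lymph node variant, and was listed at 0 in both B16-F1R2L libraries. Its partner subunit Pafah1b2 had 59.4 and 57.7 FPKM in B16-F1 against 54.9 and 56.9 in the lymph node variant (log2 -0.07, SE 0.048, adjusted p = 0.29 by limma).

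Cyba, the membrane subunit that several NADPH oxidases share, had 16.6 and 16.7 FPKM in B16-F1, was listed at 0 in 3 variant libraries, and had 0.129 in the lung variant library 2. That value is worth 1.35 reads by the depth estimate, and Cyba was 1 of 6 genes whose highest variant value was worth under 2 reads. Of the 4 other NADPH oxidase genes tested, 1 was higher and 2 were lower in B16-F1R2, and 1 was higher and 1 lower in B16-F1R2L. In B16-F1R2 the GTPase Rac2 was higher by 2.12 on the log2 scale (SE 0.17, adjusted p = 0.00013) and Rac1 fell by 0.47 (SE 0.045, adjusted p = 0.00026), both by limma. Cybb, the catalytic partner of Cyba in phagocytes, was listed at 0 in all 6 libraries. Nox4, another catalytic partner, was too low to be tested, with 0.979 and 1.13 FPKM in B16-F1 against 0.0178 to 0.0499 in the variants.

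Ddah2, which breaks down methylated arginines, had 10.7 and 10.8 FPKM in B16-F1 and 0.192 to 0.623 in the variants. Its relative Ddah1 also fell, by 1.43 in the lymph node variant (SE 0.27, adjusted p = 0.0049 by limma). Pde8a, a cyclic AMP phosphodiesterase, had 9.28 FPKM in both B16-F1 libraries and 0.196 to 0.414 in the variants. Slc16a3, a lactate transporter, had 5.94 and 6.15 FPKM in B16-F1 and 1.01 to 1.46 in the variants, close to the limit of the rule. Its relative Slc16a1 was higher in B16-F1R2 by 0.45 (SE 0.048, adjusted p = 0.00041 by limma). Cln3, a lysosomal membrane protein, had 4.95 and 5.64 FPKM in B16-F1 and 0.900 to 1.22 in the variants.

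Among secreted and matrix proteins, Lgals3 showed one of the widest gaps. It encodes galectin-3, a sugar-binding lectin found inside and outside cells, and lies at chr14:47987426-48005835 on the plus strand. Its level was 60.1 and 63.0 FPKM in B16-F1, 0.170 and 0.267 in the lymph node variant, and 0.511 and 0.803 in the lung variant, so the lower B16-F1 value was 74.8 times the highest variant value. Of the 7 other tested galectins and binding proteins, 3 were higher and 2 lower in B16-F1R2, and 4 were higher and 1 lower in B16-F1R2L. Lgals7 had 0.235 and 0 FPKM in B16-F1 against 132 to 154 in the variants. In B16-F1R2, Lgals8 fell by 1.03 (SE 0.055, adjusted p = 2.7e-05) and Lgals9 rose by 0.62 (SE 0.045, adjusted p = 8.6e-05), both by limma.

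Lamb1, the beta chain of several laminins of the basement membrane, had 10.4 FPKM in both B16-F1 libraries, 0.571 and 0.557 in the lymph node variant, and 0.382 and 0.256 in the lung variant. Of the 8 other basement membrane genes tested, 3 were higher and 2 lower in B16-F1R2, and 4 were higher and 2 lower in B16-F1R2L. The alternative beta chain Lamb2 had 20.9 and 21.2 FPKM in B16-F1 and 19.1 in both B16-F1R2 libraries (log2 -0.14, SE 0.050, adjusted p = 0.056 by limma). Nid2 and Nid1, linker proteins of the basement membrane, differed in direction in B16-F1R2, with log2 differences of 0.93 (SE 0.24, adjusted p = 0.016) and -0.76 (SE 0.094, adjusted p = 0.00083), and the laminin chain Lama5 was higher by 0.85 (SE 0.11, adjusted p = 0.00089).

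Dkk3, a secreted protein of the Dickkopf family, had 13.7 and 13.5 FPKM in B16-F1, 0.0226 and 0.0645 in the lymph node variant, and 0.0696 and 0.208 in the lung variant. The Wnt list held 17 other tested genes, of which 10 were higher and 5 lower in B16-F1R2, and 10 were higher and 4 lower in B16-F1R2L. The ligands Wnt10a and Wnt6 were higher in B16-F1R2 by 4.10 (SE 0.27, adjusted p = 5.7e-05) and 3.78 (SE 0.15, adjusted p = 7.4e-06), while the receptor Fzd9 had 1.30 and 1.42 FPKM in B16-F1 and was listed at 0 in all 4 variant libraries. Pkdcc, a secreted protein kinase, stood nearer to the limit, with 5.49 and 6.08 FPKM in B16-F1 and 1.14 to 1.32 in the variants. Scrg1 had 5.79 and 6.37 FPKM in B16-F1 and 0.576 to 1.14 in the variants.

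Receptors and adhesion proteins of the cell surface form the next group. Ackr3, an atypical receptor that takes up the chemokine Cxcl12, had 3.57 and 4.002 FPKM in B16-F1, 0.0477 and 0.0924 in the lymph node variant, and 0.101 and 0.233 in the lung variant. Cxcr4, the signalling receptor for the same chemokine, was listed at 0 in all 6 libraries. Of 7 other members of the chemokine list that were tested, 4 were higher and 2 lower in B16-F1R2, and 3 were higher and 1 lower in B16-F1R2L. The ligands Cxcl10, Ccl5 and Ccl25 were higher in B16-F1R2 by 3.73 (SE 0.084, adjusted p = 9.7e-07), 2.73 (SE 0.074, adjusted p = 2.0e-06) and 0.71 (SE 0.10, adjusted p = 0.0016) on the log2 scale, by limma.

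Gpr37, an orphan G protein-coupled receptor, had 10.4 and 11.3 FPKM in B16-F1 and 0.271 to 0.701 in the variants. Igsf11, an adhesion molecule of the immunoglobulin superfamily, had 7.19 and 8.21 FPKM in B16-F1, 0.973 and 1.16 in the lymph node variant, and 0.522 and 0.597 in the lung variant. Sdk1, another immunoglobulin-type adhesion molecule, had 4.51 and 4.58 FPKM in B16-F1 and 0.00882 to 0.0713 in the variants. Cacna1c, the pore subunit of an L-type calcium channel, had 2.98 and 3.08 FPKM in B16-F1, 0.282 and 0.315 in the lymph node variant, and 0.588 and 0.737 in the lung variant. Prrg4, a transmembrane protein with a Gla domain, had 2.92 and 3.57 FPKM in B16-F1 and at most 0.0766 in the variants.

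Proteins of the cytoskeleton and of intracellular signalling included Basp1, Crip1, Tmsb4x, Spry1 and N4bp3. Basp1, a membrane-bound protein best known from growing axons, had 55.7 and 56.0 FPKM in B16-F1, 4.20 and 4.46 in the lymph node variant, and 6.44 and 8.12 in the lung variant. Tmsb4x, which binds actin monomers, had 12.1 and 9.72 FPKM in B16-F1 and 0.163 to 0.690 in the variants. Its relative Tmsb10 had 1642 and 1635 FPKM in B16-F1 against 4246 and 3992 in the lymph node variant (log2 1.33, SE 0.068, adjusted p = 2.1e-05 by limma), so this related transcript differed in the opposite direction. Spry1, an inhibitor of receptor tyrosine kinase signalling, had 8.31 and 8.36 FPKM in B16-F1 and 1.25 to 1.47 in the variants, and its relative Spry2 fell by 0.67 in the lymph node variant (SE 0.13, adjusted p = 0.0059 by limma). Crip1, a small LIM domain protein, kept 1.94 to 3.61 FPKM in the variants against 15.9 and 17.2 in B16-F1. N4bp3 had 5.69 and 5.70 FPKM in B16-F1 and 0 in the table for both B16-F1R2 libraries, with 0.0383 and 0.0950 in the lung variant.

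Nuclear proteins and proteins of ubiquitin handling made up most of the remainder. Cited1, a transcriptional coregulator known from melanocytes, lies at chrX:99442720-99447520 and had 113 and 119 FPKM in B16-F1, 17.7 and 12.5 in the lymph node variant, and 7.29 and 11.04 in the lung variant. Its relative Cited2 had 104 and 101 FPKM in B16-F1 and 87.7 to 90.4 in the variants. Nsd1, a histone lysine methyltransferase, had 2.65 and 2.81 FPKM in B16-F1 and 0.0104 to 0.0301 in the variants, while its relative Whsc1l1 had 13.8 and 14.5 FPKM in B16-F1 against 13.9 and 13.8 in the lymph node variant (log2 -0.03, SE 0.058, adjusted p = 0.68 by limma). Ubqln2, a ubiquilin that carries ubiquitinated proteins to the proteasome, had 8.50 and 8.13 FPKM in B16-F1 and was listed at 0 in 3 variant libraries, with 0.0243 in the lung variant library 1. Ubqln1 had 51.4 and 50.3 FPKM in B16-F1 against 52.8 and 53.1 in the lymph node variant (log2 0.06, SE 0.045, adjusted p = 0.31 by limma). Pet2, on the X chromosome, had 6.52 and 5.99 FPKM in B16-F1, and Flywch2 had 6.68 and 3.62; both were listed at 0 in all 4 variant libraries.

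The remaining genes stayed under 5 FPKM in every library. Zfp395, a zinc finger protein, had 3.12 and 2.74 FPKM in B16-F1 and 0.417 to 0.670 in the variants, and Magee1, of the MAGE family, had 2.74 and 3.15 against 0.294 to 0.653. Fam73a had 3.72 and 3.58 FPKM in B16-F1 and at most 0.0727 in the variants, Tram1l1 had 2.44 and 2.24 against 0.205 to 0.527, and Phyhipl had 2.40 and 2.33 against at most 0.0264. Rnf113a2, which the annotation calls a pseudogene, had 3.68 and 3.80 FPKM in B16-F1 and 0.0630 in 1 variant library, with the other 3 listed at 0. Its relative Rnf113a1 had 4.07 and 4.61 FPKM in B16-F1 and 3.89 to 5.77 in the variants. Gm16861, a long intergenic RNA in the annotation, had 4.07 and 3.60 FPKM against 0.665 to 0.823. It shares 262 exonic bases on the opposite strand with Nudt16l1, and the way the counting used strand is not given in the sources used here, so its value is uncertain.

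Across 35 named relatives and pathway partners, chosen by family after the values of the 40 genes were known, 24 were tested. In B16-F1R2, 5 relatives were higher and 10 lower than in B16-F1, and in B16-F1R2L 3 were higher and 10 lower, beside 28.2% of all tested genes higher and 27.2% lower in the lymph node variant and 29.5% and 27.1% in the lung variant. The 19 tested family members alone had a median log2 difference of -0.03 in the lymph node variant and -0.02 in the lung variant. For the 5 tested pathway partners the medians were -0.52 and -0.30. Of these partners 0 were higher and 4 lower in B16-F1R2, and 0 were higher and 3 lower in B16-F1R2L. Of all stretches of 50 bases in the transcripts of the 40 genes, 34 genes had 0 that also occur elsewhere in the genome without a mismatch, and the highest share was 2.37% for Tyr. Copies that differ by a mismatch, which the alignment allowed, were not examined. Transcripts of Cln3, Mgll, Phyhipl and Slc16a3 also overlap exons on the opposite strand, by 442 bases with Apobr, 90 with Gm16628, 1050 with Fam13c and 831 with Csnk1d.

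The variants differed from each other in some of these genes. In B16-F1R2L against B16-F1R2, 9 of the 40 genes (22.5%) were higher and 4 (10%) lower by limma at an adjusted p of 0.05, beside 12.1% of all tested genes higher and 10.5% lower. The remaining 27 did not pass the test. Of the 40, 10 reach 1 FPKM in 2 of the 4 variant libraries, and the other 30, among them Lgals3 and Isyna1, passed the filter only with the B16-F1 libraries included. Fitted on the 4 variant libraries, with only those 10 genes tested, Tyr, Basp1 and Mgll were higher and Hgsnat lower. The median difference of the 40 was 0.26 on the log2 scale, beside 0.02 over all tested genes, and it depended on the scale: 0.06 with a pseudocount of 1 FPKM, 0.59 with 0.01 and 0.14 after quantile normalization. Both B16-F1R2L libraries lay above both B16-F1R2 libraries in 15 of the 40 genes, beside 35.9% of all tested genes, and below them in 6, beside 29.2%. In the other 19 genes the libraries of the variants overlapped or tied. With 2 libraries against 2, an exact two-sided permutation test of a single gene cannot go below p = 0.333, and the calls therefore depend on the variance that limma pools over genes.

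Among the genes that reach 1 FPKM within the variants, Tyr was higher in B16-F1R2L by 0.71 on the log2 scale (SE 0.064, adjusted p = 0.0028 by limma), the smallest adjusted p of the 40 genes, Mgll by 0.88 (SE 0.17, adjusted p = 0.018) and Basp1 by 0.73 (adjusted p = 0.0096). Trpm1 and Dct, pigment genes outside the set, were also higher there, by 0.54 (SE 0.059, adjusted p = 0.0046) and 0.39 (SE 0.054, adjusted p = 0.0082). The other 6 genes called higher passed the filter only with the B16-F1 libraries included, and their variant levels are low. Of these, Lgals3 differed by 1.24 (SE 0.23, adjusted p = 0.016 by limma), Isyna1 by 1.12 (SE 0.16, adjusted p = 0.0091), Cacna1c by 0.93 (SE 0.19, adjusted p = 0.022), Oca2 by 0.79 (SE 0.13, adjusted p = 0.012), Gpr37 by 0.79 and Pde8a by 0.66, the last pair with adjusted p of 0.034 and 0.041. With no filter on low values Lgals3, Isyna1, Cacna1c and Oca2 kept their calls. That fit still included the B16-F1 libraries, so it cannot show whether these calls stand without them. Gpr37 and Pde8a each lost their call in 8 of 13 alternatives, with adjusted p up to 0.11 and 0.24.

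Genes lower in B16-F1R2L were Pafah1b3 (log2 -1.69, SE 0.43, adjusted p = 0.039), Igsf11 (-0.82, SE 0.16, adjusted p = 0.017), Lamb1 (-0.68, SE 0.19, adjusted p = 0.045) and Hgsnat (-0.27, SE 0.037, adjusted p = 0.0082), all by limma. Of these, Hgsnat alone reaches 1 FPKM in 2 variant libraries, and after rescaling to a sum of 1000000 its difference was -0.16 and its call was lost (adjusted p = 0.059). Pafah1b3 is listed at 0 in both B16-F1R2L libraries, so its difference moves with the pseudocount, from -4.45 to -0.32 over the alternatives. Its call and that of Lamb1 were each lost in 8 of 13, with adjusted p up to 0.13 and 0.15. Cited1 had a difference of -0.73 (SE 0.22) that did not pass the test (adjusted p = 0.062). The counts rest in part on single libraries. Without B16-F1R2L library 2, 3 of the 40 genes were higher and 1 lower; without B16-F1R2 library 1, 4 and 1.

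**Figure D4:**
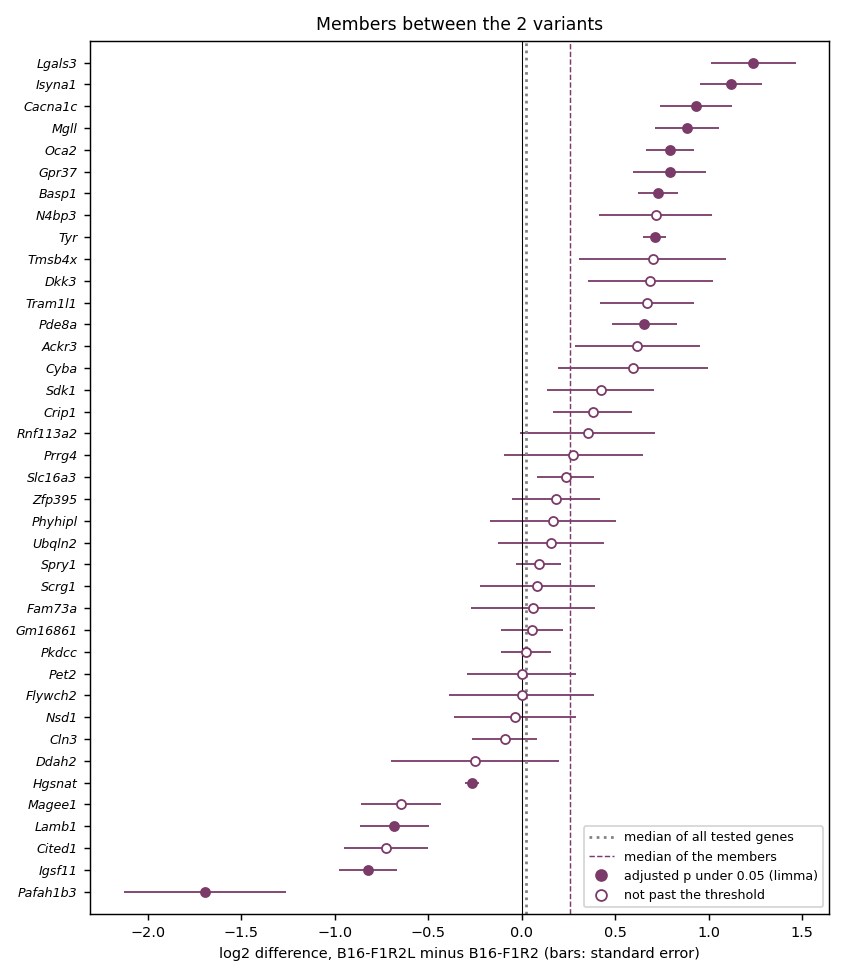
Difference of 39 of the 40 genes between the variants, as log2(FPKM + 0.1) of B16-F1R2L minus B16-F1R2, with the standard error of limma as bars; filled points passed an adjusted p of 0.05 and open points did not. The dotted line is the median of all tested genes (0.02) and the dashed line the median of the 40 genes (0.26), and Lgals3 (1.24) and Pafah1b3 (-1.69) lie at the ends.

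The 40 genes did not lie side by side in the genome. The closest pair on a chromosome was Cited1 and Magee1, 2868215 bases apart with 9 tested genes between them, and no other pair had fewer tested genes between its members. The X chromosome held 6 of them, among them Pet2, Cited1, Magee1, Ubqln2 and Tmsb4x, or 1.80% of its 333 tested genes, and chromosome 7 another 6 (Pafah1b3, Oca2, Pde8a, Tyr, Dkk3 and Cln3), or 0.757% of 793, beside 0.382% of all tested genes with a position. These shares are a description, with no test. The median length of the longest transcript was 3134 bases, beside 3089 over all tested genes, and the median gene span 15837 bases, beside 23069.

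The genes next to them were compared between the same lines. The nearest tested gene on either side of each of the 40 genes was taken, 80 in all. In B16-F1R2, 27 of the 80 (33.8%) were lower and 22 higher than in B16-F1, beside 27.2% of all tested genes lower and 28.2% higher. Their median log2 difference was -0.03, and 0 of 80 had a difference of -2 or lower, beside 1.02% of all tested genes. In B16-F1R2L 25 were lower and 26 higher, beside 27.1% and 29.5%, with a median of -0.04, and again 0 were at -2 or lower, beside 0.993%. The most negative neighbour in B16-F1R2 was Ugt8a, on the higher side of Tram1l1, at -1.48.

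Some neighbours lie very close. Mvd lies 656 bases from Cyba and fell by 1.09 in the lymph node variant (adjusted p = 2.0e-05 by limma), against -7.39 for Cyba on the same scale. Dlgap5, 1619 bases from Lgals3, was higher by 0.72 (adjusted p = 4.6e-05), and Dld, 1920 bases from Lamb1, was higher by 0.22 (adjusted p = 0.0065). Ssbp4, 203 bases from Isyna1, fell by 0.26 (adjusted p = 0.025), and Rab24, 898 bases from Nsd1, differed by 0.09 (adjusted p = 0.30). Clic1, 286 bases from Ddah2, fell by 0.63 (adjusted p = 0.00031).

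**Figure D5:**
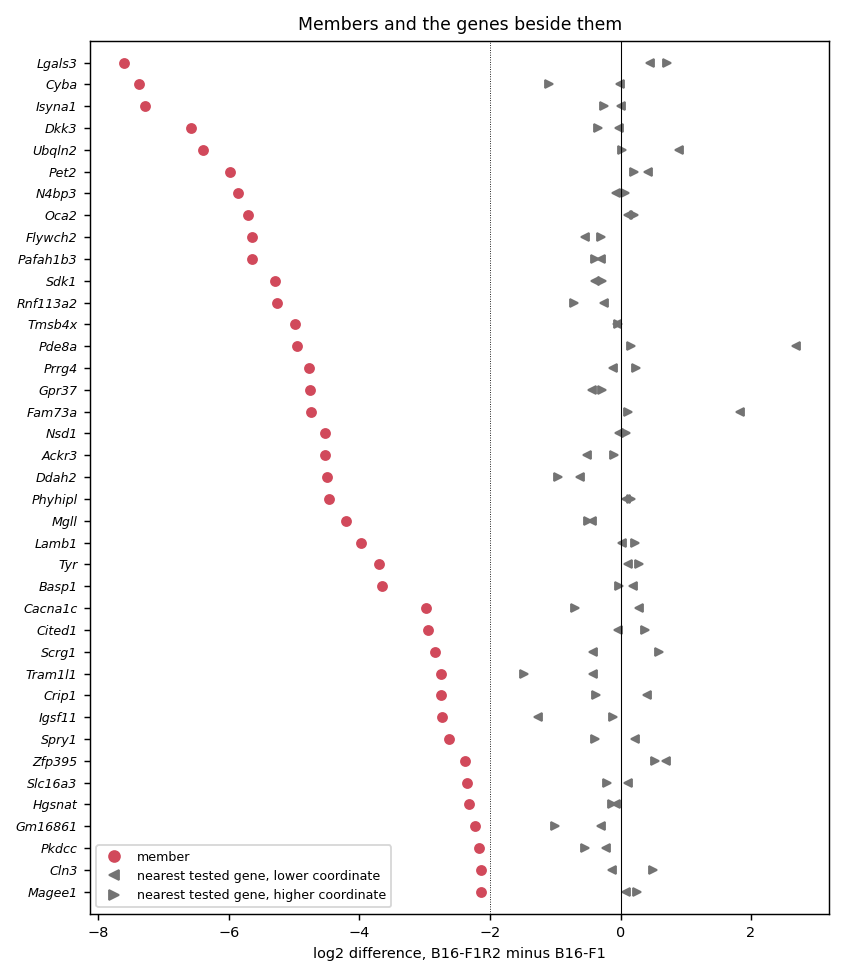
Log2 difference of B16-F1R2 minus B16-F1, on the scale log2(FPKM + 0.1), for 39 of the 40 genes (red circles) and for the nearest tested gene at lower and at higher coordinates (grey triangles). The dotted line marks -2: the 39 genes lie to its left, and their 78 neighbours lie to its right, down to -1.48 for Ugt8a.

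The limits of the rule cut through a continuous range of values. The genes just inside the share of 1/4 were Cln3 (24.7%), Slc16a3 (24.7%) and Cacna1c (24.8%), and those just outside were Podxl2 (25.9%), Cort (26.5%) and Cpne4 (26.6%). At the limit of 2 FPKM the lowest genes inside were Tram1l1 (2.24 FPKM), Phyhipl (2.33) and Nsd1 (2.65), and the highest outside were Krba1, Eva1a and Pde10a. Krba1 had 1.57 and 1.82 FPKM in B16-F1 and was listed at 0 in all variant libraries. Taken 1 variant at a time, 55 genes met the share of 1/4 in the lymph node variant and 46 in the lung variant. The 15 that met it in B16-F1R2 alone, named after their values were seen, included the receptor Met, with 146 and 147 FPKM in B16-F1, 34.5 and 34.7 in the lymph node variant and 43.0 and 45.8 in the lung variant. The 6 that met it in B16-F1R2L alone included Abca12, with 16.7 and 17.5, 7.66 and 7.89, and 3.40 and 3.63 FPKM in the same order. Turned round, with all 4 variant libraries at 2 FPKM or more and B16-F1 at 1/4 of them or less, the rule found 257 genes.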

How the data were processed

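RNA was measured in 6 libraries of 3 cell lines, 2 per line, grouped by the labelled line. The deposited values are FPKM in 1 table of 23951 genes, made by the authors from single-end reads of 50 bases aligned to mm9; replicates were not pooled. The submitters' processing notes name FastQC 0.10.1, TopHat2 2.0.10, Bowtie 1.0.0, SAMtools 0.1.1.9, Cuffnorm and DESeq2, and the gene annotation is not given in the sources used here. Every value column was mapped to a library (0 unmapped). FPKM are not counts, so the log2(FPKM + 0.1) values of the 11379 genes with 1 FPKM or more in at least 2 libraries were fitted with limma 3.58.1 in R 4.3.3 (eBayes with a trend, all 6 libraries, no block), with Benjamini-Hochberg adjustment over all tested genes at 0.05. On this scale the differences of genes with low values come out too small, and an exact 0 may be a failed estimate. The table gives no read totals, so no counting interval was computed and depth is an estimate.

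The 40 genes, the 26 pathway lists and the relatives were chosen with earlier results of these data known. Of the lists, 6 hold 1 or more of the 40 genes, and 20 hold none and are not described apart from the melanocyte lineage regulators. The genes named were those with the largest ratio of B16-F1 to variant values, the highest B16-F1 values, list membership, the largest called difference between the variants, or a place next to a limit of the rule, with up to 3 other genes of each list that held a member and the cell type markers. This rule took 26 of the 40, and those outside it that are described are given for completeness. Neighbours, relatives, Kit, Sox9 and Nox4 were named after their values were seen.

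Positions and lengths came from the NCBIM37 assembly with its GENCODE annotation, by gene symbol (all 40 matched), and 8614 tested genes had a RefSeq promoter window. RefSeq sequences (table build GRCm38.p6) were placed on NCBIM37 by an exact match, since the builds differ. Among the genes without a window were Dkk3, Hgsnat, Pet2, Zfp395, Scrg1, Pafah1b3, Rnf113a2, Nsd1, Ubqln2 and Fam73a. Of the 40 genes, 1 is counted but not reported by itself here. On simulated data for B16-F1R2 minus B16-F1 over 10663 genes, limma recovered 196 of 200 genes changed by 2 on the log2 scale and called 8 others. Python 3.11.15 served for the other steps. Alternatives were pseudocounts of 1 and 0.01, no filter or one at 5 FPKM, no trend, only the 4 libraries compared, a replicate block, 3 scalings, a minimum log2 difference of 1, other limits of the rule, and each library left out in turn.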

Additional observations from a re-analysis of the deposited data

Results flagged for a closer look

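A difference between the variants, tested by limma over all genes with adjustment, drew attention to 13 of the 40 genes. In B16-F1R2L minus B16-F1R2 the log2 differences were 1.24 for Lgals3, 1.12 for Isyna1, 0.93 for Cacna1c, 0.88 for Mgll, 0.79 for Oca2, 0.79 for Gpr37, 0.73 for Basp1, 0.71 for Tyr and 0.66 for Pde8a. They were -0.27 for Hgsnat, -0.68 for Lamb1, -0.82 for Igsf11 and -1.69 for Pafah1b3. Of these genes only Tyr, Mgll, Basp1 and Hgsnat pass the 1 FPKM filter within the 4 variant libraries, and the other 9 were tested only with the B16-F1 libraries included, where the rule required a high level.

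The call of Tyr was kept in the 16 alternatives in which it was tested (adjusted p from 0.0021 to 0.027), apart from the minimum log2 difference of 1, which Tyr at 0.71 does not reach. Isyna1 kept its call in 13 alternatives (adjusted p from 0.0078 to 0.046), but was not tested with only the 4 variant libraries or without either B16-F1 library. Gpr37, Lamb1, Pafah1b3 and Pde8a kept their call in 5 of 13 alternatives each, with adjusted p up to 0.11, 0.15, 0.13 and 0.24. Lgals3 lost its call in 2 of 13 (adjusted p up to 0.077), Cacna1c in 3 of 12 (up to 0.087) and Igsf11 in 3 of 15 (up to 0.065). Basp1, Hgsnat, Mgll and Oca2 each lost it in 1, with adjusted p of 0.062, 0.059, 0.089 and 0.058. The sign was the same in every alternative for all 13 genes.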

How the results depend on the processing

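Requiring a log2 difference of at least 1 left 819 genes higher and 328 lower in B16-F1R2 minus B16-F1, 957 and 259 in B16-F1R2L minus B16-F1, and 116 and 24 in B16-F1R2L minus B16-F1R2. In the last contrast, 743 genes were lower with no filter, 650 without the trend and 484 after rescaling to a sum of 1000000, against 1190. With only the 4 libraries compared, 10 of the 40 genes were tested, and 3 of them were higher and 1 lower. With the minimum difference, 2 and 1 of the 40 were called. Lower calls were 2 with a pseudocount of 1, with no filter, with a filter at 5 FPKM and after rescaling. The median over the 40 genes was 0.06 with a pseudocount of 1, 0.59 with 0.01, 0.40 over the 26 tested with the filter at 5 FPKM, 0.39 after rescaling and 0.14 after quantile normalization. The rule found 23 genes at a share of 1/8, 61 from 1 FPKM and 26 from 5 FPKM. It found 44 after rescaling, of which 34 were among the 40. The cause of these changes was not tested, except that the limits of the rule act by construction.

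Leaving out 1 library gave 2547 to 3180 genes higher and 2277 to 3169 lower in B16-F1R2 minus B16-F1, 2643 to 3237 and 2158 to 3000 in B16-F1R2L minus B16-F1, and 317 to 1051 and 155 to 1038 in B16-F1R2L minus B16-F1R2, with the lone library assumed to vary like the others. Of the 40 genes 3 to 11 were then higher and 1 to 3 lower, the median was 0.16 to 0.36, and the rule found 40 to 45 genes. Without B16-F1 library 1 or 2, 14 of the 40 were tested, and 4 were higher and 2 lower; without B16-F1R2 library 1, 4 and 1; without B16-F1R2 library 2, 6 and 2; and without B16-F1R2L library 2, 3 and 1. In that contrast over all genes, the higher and lower calls were 317 and 155 without B16-F1R2 library 1, 654 and 631 without B16-F1R2 library 2, and 362 and 243 without B16-F1R2L library 2, and the lower calls were 752 and 782 without B16-F1 library 1 and 2.

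Rescaling to a sum of 1000000 made 80.7% of the calls in B16-F1R2L minus B16-F1R2 higher (2019 higher and 484 lower), against 53.7%, and 67.0% in B16-F1R2L minus B16-F1, against 52.1%. It moved the median of all tested genes to 0.13 in both, so differences there are relative to that shift. The directions of the 13 called genes held under each scaling, but Hgsnat (-0.16, adjusted p = 0.059) and Lamb1 (adjusted p = 0.061) lost their calls on rescaling, and Gpr37, Pde8a and Pafah1b3 after quantile normalization (adjusted p = 0.079, 0.098 and 0.0505).

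Replicate numbers did not pair the libraries: the correlations of the deviations of library 1 were 0.052, -0.10 and 0.079 between lines. With the number as a block, 8 of the 40 genes were higher and 3 lower between the variants; Lamb1 and Pde8a lost their calls (adjusted p = 0.056 and 0.064). Over all genes the block gave 3141 higher and 3040 lower, 3299 and 3031, and 1217 and 1104 in the 3 contrasts. Crossing the B16-F1R2L numbers, chosen after seeing the data, gave 3171 and 2902 in B16-F1R2L minus B16-F1.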
